A study of Mus musculus with 12 samples.

Results

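The nuclear genes of the mitochondrial respiratory chain were followed in mouse B cell progenitors given EBF1 or PAX5. Members were taken by symbol alone: probe sets with a single annotated symbol starting with Ndufa, Ndufb, Ndufc, Ndufs, Ndufv, Uqcr, Cox4, Cox5, Cox6, Cox7, Cox8 or Atp5. The rule found 170 of 45037 probe sets, which represent 86 of 18193 genes, and each gene was read from its brightest probe set. All cells were Ebf1-/- progenitors of strain C57BL/6, labelled as pre-pro-B cells, kept on OP9 stroma. The medium held IL-7 at 5 ng/ml, and both Flt3L and SCF at 10 ng/ml. They were transduced with the control retrovirus MigR1, which carries GFP alone, with Mig-EBF1 or with Mig-PAX5, and GFP-positive cells were sorted after 2 days for Affymetrix arrays. Every group, controls included, therefore carries the Ebf1 deletion, and each factor came from a retrovirus. The first set holds 3 control and 3 EBF1 arrays, the second set 3 control and 3 PAX5 arrays.

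The respiratory chain of the inner mitochondrial membrane passes electrons from NADH and succinate to oxygen and pumps protons, and ATP synthase uses the proton gradient to make ATP. Complex I takes electrons from NADH, complex III passes them from ubiquinol to cytochrome c, complex IV hands them to oxygen, and ATP synthase is called complex V. Most subunits are nuclear genes, and a few of complex IV exist as isoforms best known from muscle, testis or hypoxic cells. Lymphocyte progenitors that divide fast use oxidative phosphorylation beside glycolysis.

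By role the 86 members comprise 6 core subunits, 28 accessory subunits and 8 assembly factors of complex I, and 8 subunits of complex III. They also comprise 11 genes of complex IV and 8 isoforms best known from other tissues. Of complex V, 6 genes were counted with the catalytic F1 part, Atp5o included, and 11 with the membrane part Fo. The assembly factors, Ndufaf1 to Ndufaf8, share the prefix but are not part of the finished complex. Ndufa4 was counted with complex IV, where the protein is now placed. Cyc1, a catalytic subunit of complex III, lies outside the rule, and Ndufs6, Ndufa11 and Cox7b are not analysed here.

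Array medians ran from 55.1 to 60.6 in the first set and from 65.3 to 68.9 in the second. Precision is limited by how few arrays there are. Controls that carry the same number in both sets differed by a robust SD of 0.0392 to 0.0942 in log2, against 0.287 to 0.374 for controls of different numbers, so each such pair entered as 1 sample (3 control samples). PAX5 arrays 2 and 3 differed by 0.0774 and were merged too, so PAX5 has 2 samples. Separate cultures or animals are not named in the labels, and p-values therefore describe the spread of these arrays alone, which can be technical. The pre-pro-B list (9 genes, with Ptprc and Flt3) summed to 18198, 17196 and 20515 in EBF1 arrays 1, 2 and 3, against 26617, 19662 and 25627 in their controls, with 7 of 9 genes below 0 and 0 passing limma's test (3 lower at unadjusted p under 0.05). With PAX5 it summed to 22652 to 26364, against 19485 to 26357. Summed intensity of 14 stromal genes was 12198 in EBF1 array 3, against 1087 and 2909 in the other EBF1 arrays, 808 to 2829 in the control arrays and 1003 to 2056 in the PAX5 arrays. Defining B-lineage genes (9 measured) summed to 30143, 20944 and 12251 in EBF1 arrays 1, 2 and 3, against 464 to 1656 in their controls. Of the 9, 5 rose and 1 lay below 0. With PAX5 the 9 genes summed to 4275 to 5819, against 822 to 2118, and 3 lay below 0. Only Blnk of the 9 rose, and it alone read 4877, 3639 and 3351. The 8 T and NK cell genes summed to 3507 to 8505 with EBF1, against 578 to 1045 in their controls, where 1 of 8 rose, Gzma, at 8223, 6138 and 2877, and 4 of 8 lay below 0. With PAX5 these 8 summed to 1458 to 2323, against 677 to 1096, and 5 of 8 lay below 0. None passed limma's test (1 higher at unadjusted p under 0.05). The 9 myeloid genes summed to 621, 464 and 1167 in EBF1 arrays 1, 2 and 3, against 2790, 1719 and 1238, with 0 passing limma's test (1 higher and 3 lower at unadjusted p under 0.05). The part of these cell type genes in the results was not tested. Fewer cells of a type and less RNA per cell cannot be told apart in such samples.

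RefSeq start sites were at hand for 71 of the members, with 76 promoter windows of 250 bases before and 50 after the start (GRCm38.p6). Binding sites of NRF1 and of the ETS factor GABP are known from promoters of this gene class. The exact NRF1 palindrome, GCGCA followed directly by its reverse complement TGCGC, was found in 6 of the 71 genes (8.45%), against 1.07% of all 27025 genes in the table. The ETS core CCGGAAG, on either strand, was found in 17 (23.9%, against 9.93%). TATAAA, on the forward strand only, was found in 3 (4.23%, against 9.77%). No motif listed here contains another. The 4 NRF1 matches that lie before the start are shown with 20 bases on each side, 5′ to 3′ on the gene's strand, the palindrome in capitals, because the palindrome is the motif whose share exceeds that of all genes by the largest factor of those given here.
Ndufaf4, chr4:24897950-24897999, plus strand: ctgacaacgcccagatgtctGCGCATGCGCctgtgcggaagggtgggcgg
Atp5g2, chr15:102671060-102671109, minus strand: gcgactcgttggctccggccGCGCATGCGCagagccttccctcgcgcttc
Atp5k, chr5:108434420-108434469, minus strand: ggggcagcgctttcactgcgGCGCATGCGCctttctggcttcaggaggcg
Cox6a1, chr5:115349091-115349140, minus strand: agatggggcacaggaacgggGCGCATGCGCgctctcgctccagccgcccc
The palindrome starts 113 bases before the start in Ndufaf4, 42 in Atp5g2, 50 in Atp5k and 162 in Cox6a1. In Ndufaf5 and Uqcrc1 it lies after the start. A match of letters describes the window and does not show that a factor binds there.

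With EBF1 no respiratory chain gene passed the test, while 0.22% of all genes did. The test was limma's on log2(intensity + 16), adjusted by the Benjamini-Hochberg method across the 18193 genes, and 0.05 was the threshold. The median log2 change of the 86 members was -0.02, beside 0.01 for all genes, and 46 members lay below 0 (53.5%, against 46.8% of all genes). Unadjusted p was under 0.05 for 1 member, while 11.6% of all genes passed that mark. All EBF1 samples, with the control sets averaged, read below all controls for 10 members (11.6%, against 7.26% of all genes) and above all controls for 3 (3.49%, against 8.26%). The lowest adjusted p by limma was 0.17, for Cox6a2. The 95% interval of the change stayed within 1.5-fold in either direction for 78 of 86 members and within 2-fold for 82. Over all 18193 genes these counts were 11641 and 16763.

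PAX5 also left every member short of the threshold, while 0.874% of all genes passed. The members nevertheless leaned to lower values. Their median log2 change was -0.10, beside -0.01 for all genes and -0.03 for the 7313 genes whose mean log2 intensity exceeds 8, and 72 of 86 lay below 0 (83.7%, against 51.8% of all genes). Both PAX5 samples (arrays 2 and 3 averaged) read below all 3 controls for 30 members (34.9%), a pattern shown by 13% of all genes, and above all controls for 3 (3.49%, against 12.6%). Unadjusted p was under 0.05 for 2 members, while 9.45% of all genes passed that mark. The interval stayed within 1.5-fold for 72 members and within 2-fold for 83, against 10077 and 16405 of all 18193 genes.

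The lower median was uneven between the PAX5 samples. Against the control mean, the median member stood at -0.14 in PAX5 array 1 and -0.05 in arrays 2 and 3 together, and at -0.01, 0.00 and 0.01 in the controls. In EBF1 arrays 1, 2 and 3 it stood at -0.02, 0.02 and -0.01. The PAX5 median was -0.05 without PAX5 array 1, when 61 members lay below 0. Of 14 cell cycle genes 13 lay below 0 with PAX5 (median -0.12). Their median was -0.23 in PAX5 array 1 and 0.02 in arrays 2 and 3 together, where 6 of the 14 lay below 0. In controls 1, 2 and 3 it was -0.01, -0.15 and 0.16, a wider spread than that of the members. The part of the cell cycle genes in the result was not tested. The members as a class varied little: the median residual SD between replicate samples was 0.10 in log2, against 0.19 for all genes and 0.17 for genes of mean log2 above 8.

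**Figure D1:**
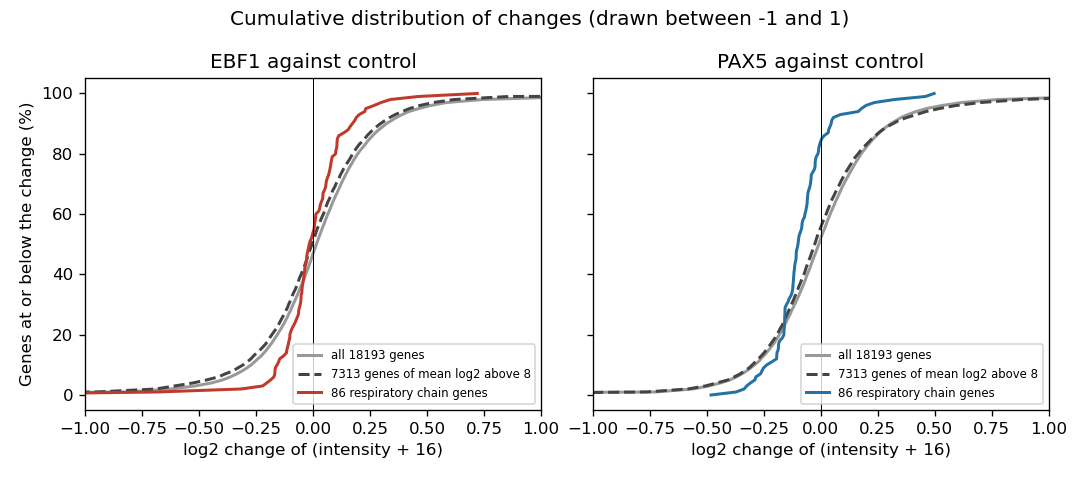
Cumulative distribution of log2 changes of intensity plus 16 for the 86 respiratory chain genes, all 18193 genes and the 7313 genes of mean log2 above 8, for EBF1 (left) and PAX5 (right); the x axis is drawn from -1 to 1, which leaves out Cox6a2 at -1.68 with EBF1. The members form a steeper curve than all genes in both panels, centred at -0.02 with EBF1 and at -0.10 with PAX5.

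The core subunits of complex I carry its flavin, iron-sulphur clusters and quinone-binding surface. With PAX5 their median log2 change was -0.17 and 5 of 6 lay below 0, and with EBF1 the median was 0.08 and 1 lay below 0. None passed either test. Ndufv1, which binds NADH and the flavin, read 2097, 2288 and 2123 in the controls and 2351, 2256 and 2361 in the EBF1 arrays of the first set. In the second set it read 2145, 2375 and 2195 in the controls and 1843, 1963 and 1878 with PAX5. All PAX5 arrays lay below their controls, while EBF1 and control arrays overlapped. The log2 change was 0.10 with EBF1 (SE 0.10) and -0.25 with PAX5 (SE 0.11, limma adjusted p = 0.55). The difference between the EBF1 and PAX5 changes was 0.35 (SE 0.11, 95% interval 0.09 to 0.60, limma adjusted p = 0.17). Ndufs8, an iron-sulphur subunit, was the exception to the lower PAX5 readings: it read 3412, 3511 and 3471 with PAX5, above controls at 3073, 2961 and 3097, with a log2 change of 0.18 (SE 0.11).

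Accessory subunits surround the core and stabilise it. Of the 28, 25 lay below 0 with PAX5 (median -0.10) and 16 with EBF1 (median -0.03). Ndufb1, a small membrane subunit, had the lowest p of all members with PAX5 and was 1 of the 3 accessory subunits above 0: it read 314, 352 and 355 with PAX5, against 239, 254 and 225 in the controls of that set. The groups did not overlap, and the log2 change was 0.45 (SE 0.15, 95% interval 0.10 to 0.80, limma adjusted p = 0.36). Ndufb2, another membrane subunit, read 1310, 1572 and 1641 with PAX5 and 1683, 1866 and 1939 in the controls. PAX5 lay lower throughout (-0.33 in log2, SE 0.15, adjusted p = 0.54 by limma). Ndufa12, also an accessory subunit, had a log2 change of -0.26 with PAX5 (SE 0.13) and 0.04 with EBF1 (SE 0.12). Ndufs5 read 2443, 2881 and 2393 with EBF1, above controls at 2179, 2351 and 2330, and 2048, 2106 and 2005 with PAX5, below controls at 2188, 2350 and 2340. Its changes were 0.16 and -0.16 in log2, and the difference between them (0.32, SE 0.13) had an adjusted p of 0.24 by limma. Ndufv3, with a change of -0.21 with EBF1 (SE 0.12) and -0.18 with PAX5 (SE 0.13), read below its controls in both comparisons. Brightest in complex I was Ndufb11, at 5377 to 6245 over the 12 arrays, and dimmest was Ndufb4, at 9.49 to 29.4. Probe sets differ in how strongly they bind, so brightness does not rank genes by transcript amount.

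Assembly factors build complex I in steps and leave it when it is complete. With EBF1 0 of 8 lay below 0 (median log2 change 0.19), and with PAX5 all 8 did (median -0.16). No factor passed in either comparison or in the test of the difference between the changes, which 1.94% of all genes passed. For that difference 3 of 8 had an unadjusted p under 0.05, beside 13 of all 86 members and 17% of all genes. Both comparisons rest on the same control samples. Median levels of the 8 against the control mean were 0.23, 0.21 and 0.11 in EBF1 arrays 1, 2 and 3, -0.29 and -0.06 in the PAX5 samples, and -0.07, 0.15 and -0.15 in the controls, so EBF1 array 3 lay below control 2, while each EBF1 array lay above the control of its own number. Ndufaf4, which helps build the arm that meets quinone, read 433, 1204 and 492 in the first-set controls and 996, 1197 and 995 with EBF1. Control 2 was as bright as the EBF1 arrays, and the groups overlapped. The log2 change was 0.72 (SE 0.32, 95% interval -0.01 to 1.45, limma adjusted p = 0.44). With PAX5 it read 567, 705 and 697, against 473, 1211 and 554 in the controls, a log2 change of -0.11 (SE 0.36). The second Ndufaf4 probe set gave 0.88 with EBF1 and 0.16 with PAX5, so its sign with PAX5 differed. Without control array 2 the difference between the changes was 0.88 and passed (limma adjusted p = 0.041), the only member called for that difference under any alternative tried. Ndufaf2, an assembly factor related to Ndufa12, read 1383, 1392 and 1657 with EBF1, above controls at 1086, 1266 and 1260, and 934, 1293 and 1245 with PAX5, overlapping controls at 1110, 1282 and 1293. Its difference between the changes was 0.46 (SE 0.17, limma adjusted p = 0.21). Ndufaf5, a modifying enzyme of the core subunit Ndufs7, stood at 0.19 with EBF1 and -0.35 with PAX5, with a difference of 0.54 (SE 0.18, adjusted p = 0.18 by limma).

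**Figure D2:**
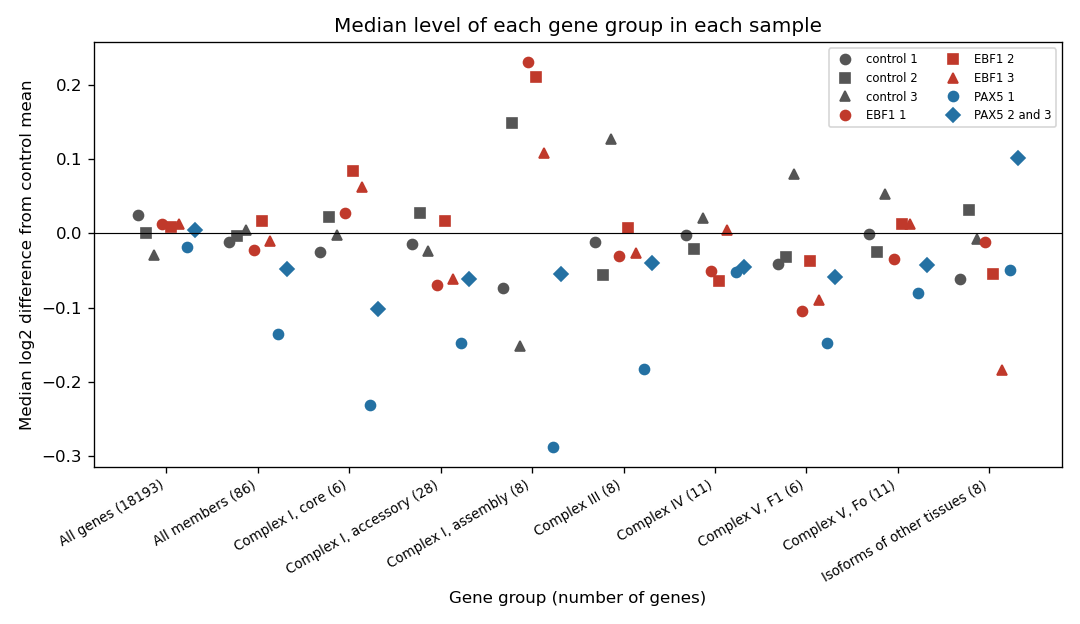
Median log2 difference from the control mean (y axis) for all genes, all 86 members and each group of members (x axis, number of genes in brackets) in each of 8 samples; grey points are controls, red EBF1 and blue PAX5, with PAX5 arrays 2 and 3 averaged. PAX5 array 1 is the lowest sample for the assembly factors at -0.29 and for the core subunits at -0.23, while all genes stay between -0.03 and 0.03.

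Complex III had a median log2 change of -0.03 with EBF1 and -0.10 with PAX5, with 7 of its 8 genes below 0 with PAX5. Uqcrq, a small subunit next to cytochrome b, read 1559, 1834 and 1788 with PAX5, below controls at 1906, 2452 and 2782. Its log2 change was -0.48 (SE 0.19, 95% interval -0.92 to -0.04, limma adjusted p = 0.47), the lowest of all members with PAX5. The controls alone spread from 1906 to 2782. Of its 3 dimmer probe sets 1 stood at 0.18 and the others at -0.20 and -0.22. Uqcrc1, a core protein of the matrix side, read 2011, 2312 and 2369 with PAX5 and 2350, 2542 and 3130 in the controls (log2 change -0.29, SE 0.15), so PAX5 array 3 reached just above control 1. Uqcrb was the brightest member of complex III, at 8774 to 10320 over the arrays, and Uqcr10 the dimmest, at 1763 to 2498; their changes lay between -0.12 and 0.10 in both comparisons.

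Complex IV members of general use stayed close to their controls. The median log2 change of the 11 was -0.02 with EBF1 and -0.06 with PAX5, with 7 and 8 of them below 0. Cox4i1, the regulatory subunit that binds adenine nucleotides, read 8482, 8169 and 8745 in the first-set controls and 7759, 8074 and 7734 with EBF1. The EBF1 arrays lay just below the controls, with a log2 change of -0.11 (SE 0.10, 95% interval -0.33 to 0.12). Cox7a2l, also counted with complex IV, read 6104, 5487 and 5026 in the controls and 5054, 5009 and 4464 with EBF1. The groups overlapped in single arrays, since EBF1 array 1 lay above control 3, and the log2 change was -0.19 (SE 0.12, limma adjusted p = 0.58), while the PAX5 value was 0.08 (SE 0.13). Cox7c had the widest interval of the group, with a log2 change of 0.50 with PAX5 (SE 0.40): array 1 read 679 and arrays 2 and 3 read 263 and 246, against controls at 351, 355 and 196.

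ATP synthase stayed near its controls. Of its 17 genes, the interval stayed within 1.5-fold for 17 with EBF1 and for 16 with PAX5 (11641 and 10077 of all 18193 genes). The medians were -0.03 and -0.08. Of the 17, 11 lay below 0 with EBF1 and 15 with PAX5. Atp5b, the catalytic subunit and the brightest of the complex, read 7490, 7796 and 8686 in the first-set controls and 7606, 7773 and 7752 with EBF1 (log2 change -0.05, SE 0.10). In the second set it read 7227, 7554 and 8216 in controls and 6701, 7306 and 7015 with PAX5 (log2 change -0.14, SE 0.12), where PAX5 array 2 lay within the control range. Atp5g1, Atp5g2 and Atp5g3 encode the same c subunit of the rotor ring with different targeting peptides. With PAX5 they stood at -0.32 (SE 0.16, limma adjusted p = 0.59), -0.12 and -0.06. With EBF1 they stood at 0.01, -0.17 and 0.01. Atp5g1 read 1996, 2457 and 2273 with PAX5 against 2369, 2679 and 3159 in controls. Atp5g2 read 4699, 4834 and 4440 with EBF1, all below controls at 5240, 5020 and 5436.

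**Figure D3:**
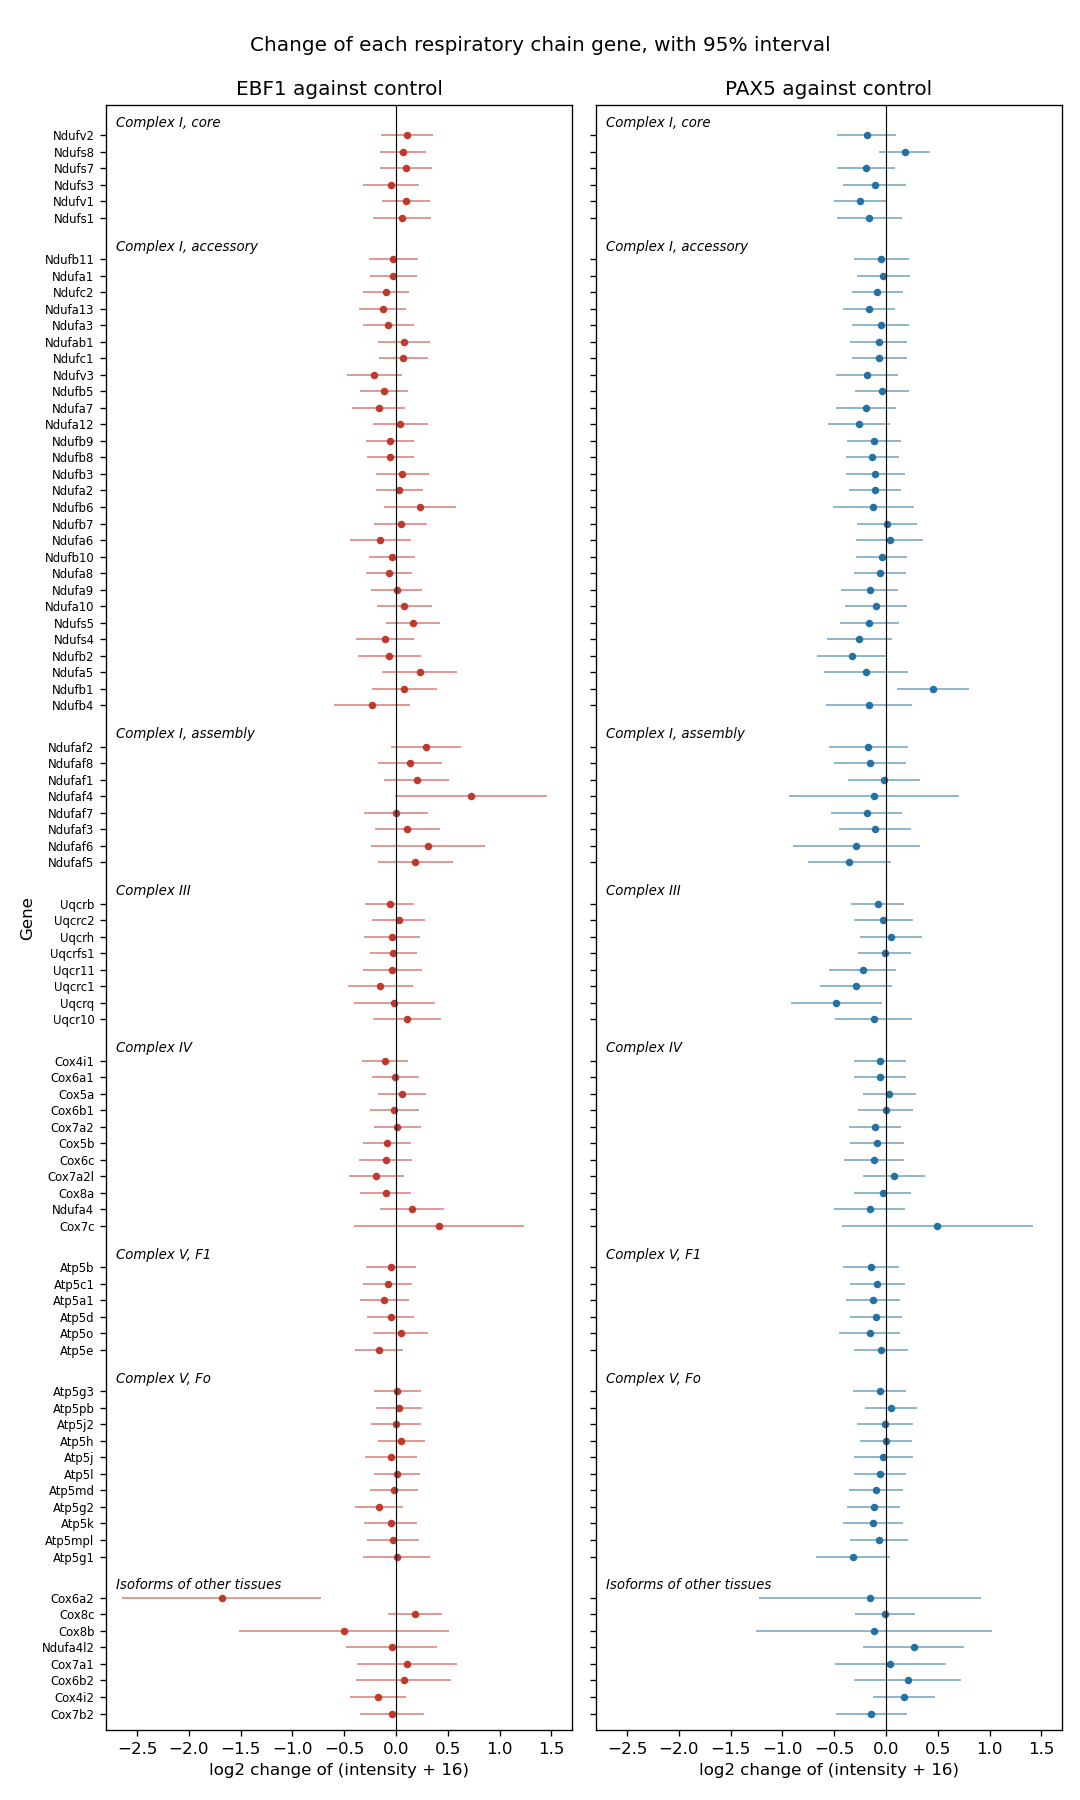
Log2 change of intensity plus 16 (x axis) for each of the 86 genes (y axis), grouped by complex and ordered by brightness within a group, with 95% intervals; EBF1 is red and PAX5 blue. With PAX5 72 of 86 points lie left of 0, and with EBF1 Cox6a2 stands apart at -1.68.

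Among the isoforms of other tissues, Cox6a2 stood apart. It encodes the heart and muscle form of subunit VIa of complex IV, whose general form is Cox6a1. Cox6a2 read 5502, 6328 and 5592 in the first-set controls and 788, 2394 and 3033 in EBF1 arrays 1, 2 and 3. All EBF1 arrays lay below all controls, with the lowest value in array 1, which was the brightest of the 3 in B-lineage genes. The log2 change was -1.68 (SE 0.42, 95% interval -2.64 to -0.73, limma adjusted p = 0.17), the largest of all members in either comparison. The second Cox6a2 probe set gave the same change, from 4074, 4689 and 3943 to 518, 1776 and 2377. Without EBF1 array 3, the array with high stromal transcripts, the log2 change was -2.06 and passed (limma adjusted p = 0.041, within 0.041 to 0.44 over all alternatives). Leaving out that array also raised the calls over all 18193 genes, to 406 from 40 in the main fit. Without EBF1 array 1 the Cox6a2 change was -1.10 (limma adjusted p = 0.053). Summed intensity of 9 adipocyte and muscle genes was 1095, 499 and 1490 in EBF1 arrays 1, 2 and 3, against 302 to 345 in their controls. The part of these genes, of the stromal genes and of the B-lineage genes was not tested. With PAX5 Cox6a2 read 5382, 4889 and 4549, against controls at 5329, 6152 and 5422 (log2 change -0.16, SE 0.47, 95% interval -1.23 to 0.91). The difference between the EBF1 and PAX5 changes was -1.53 (SE 0.47, limma adjusted p = 0.15). Cox6a1 read 8312, 7852 and 8580 with EBF1 beside 8273, 8148 and 8440 in controls, a log2 change of -0.01 (SE 0.10).

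The other isoforms were mostly dim. Cox4i2, known from lung and hypoxic cells, read 7.29 to 21.7 over the 12 arrays, and Cox6b2, a testis form, 4.59 to 20.8. Cox7a1, a muscle form, read 14.6 to 44.8, and Cox7b2, a testis form and the dimmest member of complex IV, 1 to 20.1. Their general counterparts Cox4i1, Cox6b1 and Cox7a2 had log2 changes of -0.11, -0.02 and 0.01 with EBF1 and -0.06, 0.00 and -0.10 with PAX5. Changes of the 4 dim isoforms ran from -0.17 to 0.10 with EBF1 and from -0.14 to 0.21 with PAX5, and at such intensities the constant of 16 shrinks a change. Cox8b, a muscle form, was uneven, at 169, 28.6 and 62.8 in the first-set controls and 51.9, 37.3 and 47.0 with EBF1 (log2 change -0.50, SE 0.45). Cox8c, a testis form, read 290, 342 and 288 with EBF1, above controls at 253, 283 and 269 (log2 change 0.18, SE 0.11), and its general counterpart Cox8a stood at -0.10 (SE 0.11). Ndufa4l2, a form induced in hypoxia, stood at -0.04 with EBF1 (SE 0.19) and 0.27 with PAX5 (SE 0.22), beside 0.16 and -0.16 for Ndufa4. The PAX5 value of Ndufa4l2 rests on very low readings, 1, 8.6 and 16.2 against controls at 1.25, 3.92 and 1.43. The constant of 16 shrinks a change there too.

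**Figure D4:**
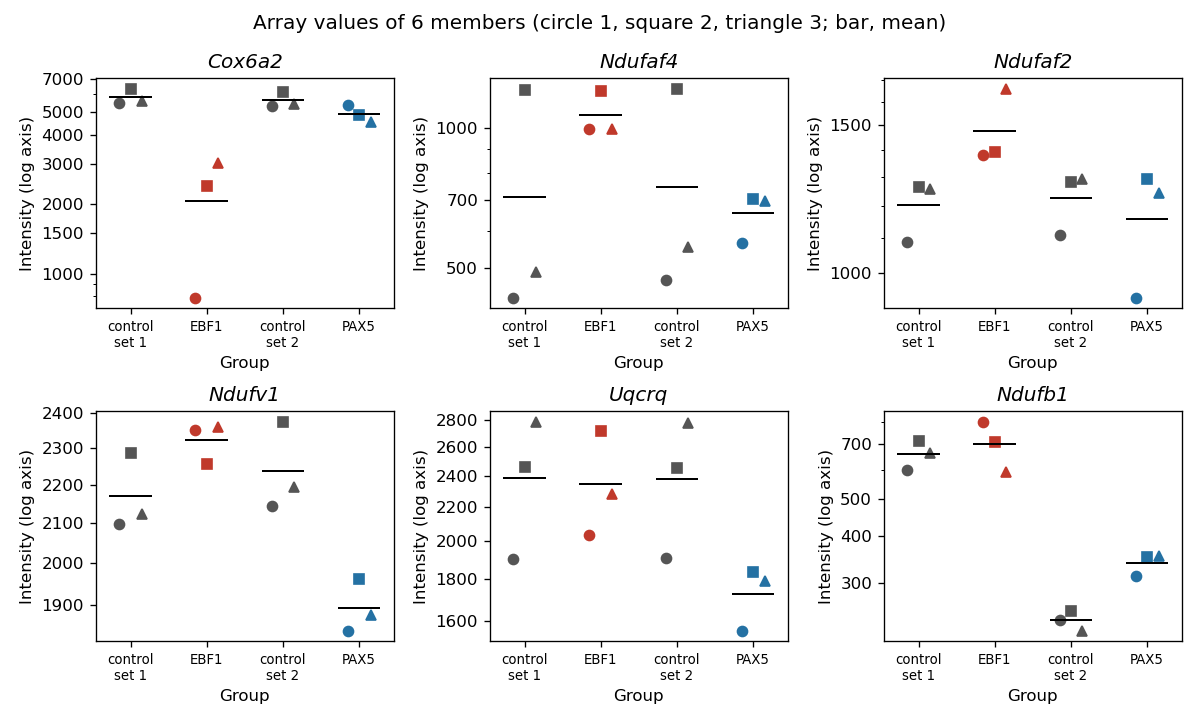
Intensity of 6 members on every array (log y axis, a range of its own in each panel) by group (x axis); circles, squares and triangles are arrays 1, 2 and 3, and the bar is the mean. Cox6a2 lies between 788 and 3033 in EBF1 arrays and at 4549 or above in all other groups, Ndufaf4 is high in control 2, and Ndufb1 is read at another level in each set.

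The level of 3 members differed between the control sets by more than 0.5 in log2. In each of them the offset was larger than either factor's change. Control arrays of the sets, counted here as the same hybridisations, gave Ndufa4l2 at 58.3, 93.0 and 99.5 in the first set and 1.25, 3.92 and 1.43 in the second, a log2 offset of -2.43. Ndufb1 read 597, 713 and 665 in the first set and 239, 254 and 225 in the second (offset -1.40), and Cox7b2 had an offset of 0.69. The other 83 members differed by less than 0.2 in log2. Levels of Ndufa4l2, Ndufb1 and Cox7b2 therefore cannot be set side by side across the sets. With each gene's offset subtracted, a change equals the difference from the control mean of the factor's own set. Its SE, interval and p-value use control samples averaged over both sets.

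Genes that share the pathway but lie outside the rule were taken from lists of complex II and cytochrome c (7 measured), assembly factors (29), regulators of mitochondrial biogenesis (16) and carriers and regulators (12). With EBF1 and with PAX5 0 of these 64 genes passed limma's test over all genes, with 4 and 7 at unadjusted p under 0.05 (11.6% and 9.45% of all genes), and 1 passed for the difference between the changes (1.94% of all genes). That gene was Gabpb1, which encodes a subunit of GABP, the ETS factor named above. It read 455, 500 and 483 in the first-set controls and 542, 507 and 554 with EBF1, and 452, 442 and 502 in the second-set controls and 302, 349 and 360 with PAX5. For Gabpb1 all EBF1 arrays lay above their controls (8.26% of all genes on merged samples) and all PAX5 arrays below (13%). Its changes were 0.15 (SE 0.11) and -0.48 (SE 0.12, limma adjusted p = 0.18), and their difference 0.64 (SE 0.12, limma adjusted p = 0.041), lost under 12 of 19 alternatives, with adjusted p from 0.013 to 0.44. Acad9, a complex I assembly factor, had a difference of 0.61 (SE 0.12, limma adjusted p = 0.051). Atpif1, the inhibitor protein of ATP synthase, read 3072, 3614 and 3522 with PAX5, below controls at 4425, 4977 and 4744 (log2 change -0.51, SE 0.13, limma adjusted p = 0.18). Nubpl, which inserts iron-sulphur clusters into complex I, stood at -0.67 with PAX5 (SE 0.20, limma adjusted p = 0.28). Cycs, cytochrome c itself, read 7351, 8117 and 8042 with EBF1 and 5900, 7435 and 6541 in controls (log2 change 0.25, SE 0.12, limma adjusted p = 0.50), overlapping in array 1.

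Other probe sets of the members gave no further call. Fitted over all 45037 probe sets, 0 of the 170 passed limma's test in either comparison or for the difference, while 0.0977%, 0.515% and 1.05% of all probe sets did. At unadjusted p under 0.05 there were 7, 3 and 20, against 9.97%, 8.51% and 14.7% of all probe sets. With PAX5 132 of the 170 lay below 0 (52.4% of all probe sets), and with EBF1 89 (46.7%). Of 48 genes with several probe sets, their signs differed for 25 with EBF1 and for 16 with PAX5.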

How the data were processed

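The authors deposited 1 linear intensity for each probe set and array; the sources used here do not give how probes were summarised and normalized. From the intensities, log2(intensity + 16) was computed and arrays were not normalized again. Names came from the platform annotation (34945 probe sets with 1 symbol, 932 with several, 9160 with none), of which 34741 matched the GRCm38.p6 table. Members, lists and naming rule were chosen with earlier results of these data known. Each gene's offset between the 2 control sets was subtracted, same-numbered controls as well as PAX5 arrays 2 and 3 were averaged, and 3 control, 3 EBF1 and 2 PAX5 samples were fitted in limma 3.58.1 (R 4.3.3; 5 residual and 3.53 prior degrees of freedom); the fit was tested on simulated data. Named members are the 6 with the lowest p per comparison, the brightest and dimmest of each complex and isoform pairs; of the other pathway lists, names were taken from genes that passed and the 2 with the lowest p per list and comparison; Ndufs8, Uqcrc1 and Cox7c were added after their values were seen. Deviations of equally numbered arrays correlated at 0.21, 0.40 and 0.22 for control and EBF1 over all genes, and at 0.24, 0.08 and 0.18 for control and PAX5; over the 7313 genes of mean log2 above 8 these were 0.36, 0.64 and 0.39, and 0.50, 0.24 and 0.35. Numbers were taken to pair control and EBF1 arrays, and for PAX5 the check depends on the genes used. The main fit left this pairing out, so the SEs, intervals and p-values in the Results are unpaired. Python 3.11.15 with pandas 2.3.3 searched the promoters, and matplotlib 3.10.9 drew the figures. Alternatives covered the constant, normalization, a filter, probe sets, array counting, blocks and left-out arrays.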

Additional observations from a re-analysis of the deposited data

Results flagged for a closer look

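Gabpb1, a pathway gene outside the members, is listed because its EBF1 and PAX5 changes differed by 0.639 in log2 in a test of the difference itself (limma adjusted p = 0.041). All EBF1 arrays lay above their controls, as for 8.26% of all genes on merged samples. All PAX5 arrays, counted as 2 samples in the fit, lay below theirs, as for 13% of all genes. The Gabpb1 difference passed in 7 of 19 alternatives, with limma adjusted p from 0.013 to 0.44.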

How the results depend on the processing

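The 20 alternatives were constants of 1 and 64, array medians, quantile normalization, a filter at mean log2 of 6, means of probe sets, other ways of counting arrays, replicate blocks and leaving out each array. The count of members called stayed at 0 with PAX5 under all of them; leaving out arrays gave 0 to 1 with EBF1 (Cox6a2, without EBF1 array 3) and 0 to 1 for the difference (Ndufaf4, without control array 2). The EBF1 median was -0.057 with each array centred on its median, and ran from -0.024 to 0.008 when arrays were left out; the PAX5 median ran from -0.108 to -0.048 over all alternatives, with 61 to 74 members below 0. With a replicate block on 12 arrays 0 members passed for EBF1 and for PAX5 (medians -0.017 and -0.081), and with a block on the 8 samples, added after seeing the data, also 0 (medians -0.017 and -0.084); the block changed no call of a member. The Gabpb1 difference had adjusted p = 0.12 with the block on 12 arrays. For named genes the sign changed, with no call on either side, in 88 cases of a gene under an alternative. Calls over all genes ran from 10 to 406 with EBF1, 28 to 425 with PAX5 and 55 to 879 for the difference, against 40, 159 and 353. The share of genes called thus depends on the constant, on how arrays are counted and on which are kept. With EBF1, 10 genes were called with a constant of 64 and 406 without EBF1 array 3. The median SE of a member's log2 change was 0.112 with EBF1 and 0.125 with PAX5.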
